A study of Mus musculus with 6 samples.

Results

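The genes described here are 7 genes of the synapse and of regulated secretion: Slc32a1, Gad1, Gad2, Dlgap1, Cntnap2, Chga and Snap25. Their probes were taken as every probe of the array whose deposited symbol equals 1 of these names, which gave 21 of 45281 probes. The genes were selected on their measured signals over the days of these arrays, so their changes between days are given as a description without a test. The cells were mouse induced pluripotent stem (iPS) cells without functional Nac1, a gene of a nuclear BTB-domain protein. The null lines, clone 7 and clone 5, received human NAC1 (hNAC1) as a rescue and were sampled on days 0, 2 and 5, with 1 bead array per clone and day and therefore 2 arrays per day. All groups share the loss of Nac1, each line is a single clone, and a time course of unrescued cells is not among the samples. The effect of hNAC1 and that of days in culture cannot be told apart. Whether cultures were independent is not stated in the labels. The error terms start from the spread between the clones in their changes, pooled over the 3 days. They are then drawn towards the spread of all probes in the fit (2 residual and 5.54 prior degrees of freedom). An error term given below is therefore not the difference between the clones in that 1 change.

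Neurons that inhibit their targets make GABA from glutamate with glutamate decarboxylase, whose isoforms are encoded by Gad1 (GAD67) and Gad2 (GAD65). The vesicular transporter encoded by Slc32a1 (VGAT) then loads GABA, and glycine, into synaptic vesicles, and SNARE proteins such as SNAP-25 drive the fusion of vesicles with the membrane. Dlgap1 encodes a scaffold protein (SAPAP1, also GKAP) under the postsynaptic membrane, Cntnap2 a neurexin-like adhesion protein (Caspr2) of axons, and Chga chromogranin A of the dense core granules of endocrine and nerve cells. Pluripotent cells form no synapses.

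The sequence upstream of annotated start sites is shown for the 3 genes whose probes changed most. Which transcripts these probes read is not given in the sources used, so a window need not belong to a transcript that was measured. The 250 bases before each start site come from RefSeq on GRCm38.p6, all on the plus strand, with capitals for the E-box CAGGTG, a site bound by zinc finger repressors such as Zeb1. Read on the opposite strand, the same box appears as CACCTG. Slc32a1 lies on chromosome 2, and its window is chr2:158610508-158610757, inside the gene record, which starts at 158607260. Dlgap1 lies on chromosome 17 with windows for start 1 at chr17:69968823-69969072 and for start 2 at chr17:70561497-70561746. Cntnap2 lies on chromosome 6, with the window of start 1 at chr6:45059811-45060060.
Slc32a1: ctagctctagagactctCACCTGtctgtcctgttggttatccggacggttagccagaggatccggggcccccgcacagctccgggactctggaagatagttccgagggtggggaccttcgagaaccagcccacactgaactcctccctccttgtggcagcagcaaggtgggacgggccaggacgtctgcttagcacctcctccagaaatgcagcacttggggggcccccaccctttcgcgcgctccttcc
Dlgap1 start 1: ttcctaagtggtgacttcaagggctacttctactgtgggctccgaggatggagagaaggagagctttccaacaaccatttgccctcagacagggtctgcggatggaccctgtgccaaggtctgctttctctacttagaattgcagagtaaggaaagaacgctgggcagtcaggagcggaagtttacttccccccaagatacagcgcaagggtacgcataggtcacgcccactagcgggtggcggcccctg
Dlgap1 start 2: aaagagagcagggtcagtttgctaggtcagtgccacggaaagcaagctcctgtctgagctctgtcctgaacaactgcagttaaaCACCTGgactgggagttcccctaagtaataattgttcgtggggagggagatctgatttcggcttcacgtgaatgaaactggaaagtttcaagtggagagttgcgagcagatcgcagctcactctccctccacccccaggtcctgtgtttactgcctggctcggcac
Cntnap2 start 1: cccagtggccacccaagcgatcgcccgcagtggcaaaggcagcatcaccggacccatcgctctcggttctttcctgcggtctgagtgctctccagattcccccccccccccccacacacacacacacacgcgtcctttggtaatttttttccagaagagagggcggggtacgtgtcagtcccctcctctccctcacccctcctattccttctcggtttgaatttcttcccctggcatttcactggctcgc

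The E-box was found 1 time in the Slc32a1 window and 1 time in that of Dlgap1 start 2, and not in the windows of Dlgap1 start 1 and Cntnap2 start 1. Of 32851 RefSeq promoter windows of the same length, 17.22% hold it on either strand. The TATA box letters TATAAA, held by 12.37% of windows, were in none of the 4. The windows held 12, 9, 7 and 13 CpG dinucleotides in the order printed, against a median of 6 over all windows. A further Cntnap2 window, that of start 2 at chr6:47244146-47244395, is not printed and holds the E-box 1 time and 3 CpG dinucleotides. RE1, the element bound by the repressor REST that silences neuronal genes outside neurons, was searched through the letters TTCAGCACC of its left part, and through GGACAGCGC of its right part, on both strands. Neither part was found in the 4 windows, and 0.3% of all windows hold each of them. Among the other genes described here, the Gad2 window, not printed, holds the right part 1 time and no E-box. The Gad1 window holds the E-box and the TATA box 1 time each, and the Chga window holds the E-box 1 time. No Snap25 window was available. These matches describe the letters only.

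The number of detected probes was between 16739 and 18150 per array (37.0% to 40.1%), where detected means a detection p-value under 0.05 against the negative controls of the array. Deposited signals had a median of 93.4 to 95.9 in arbitrary units, which is the level of the background. Of the 21 probes, 5 were detected on all 6 arrays, 8 on 1 to 5 arrays and 8 on 0. The 12 probes detected on both arrays of at least 1 day entered the fit with 17471 probes in all, and they read Slc32a1 (1 of 1 probe), Gad1 (3 of 4), Dlgap1 (4 of 5), Cntnap2 (2 of 5) and Chga (2 of 3). The other 9 did not enter it. A further 2 probes that carry an older symbol, of Gad2 and Dlgap1, were detected on 0 arrays.

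**Figure D1:**
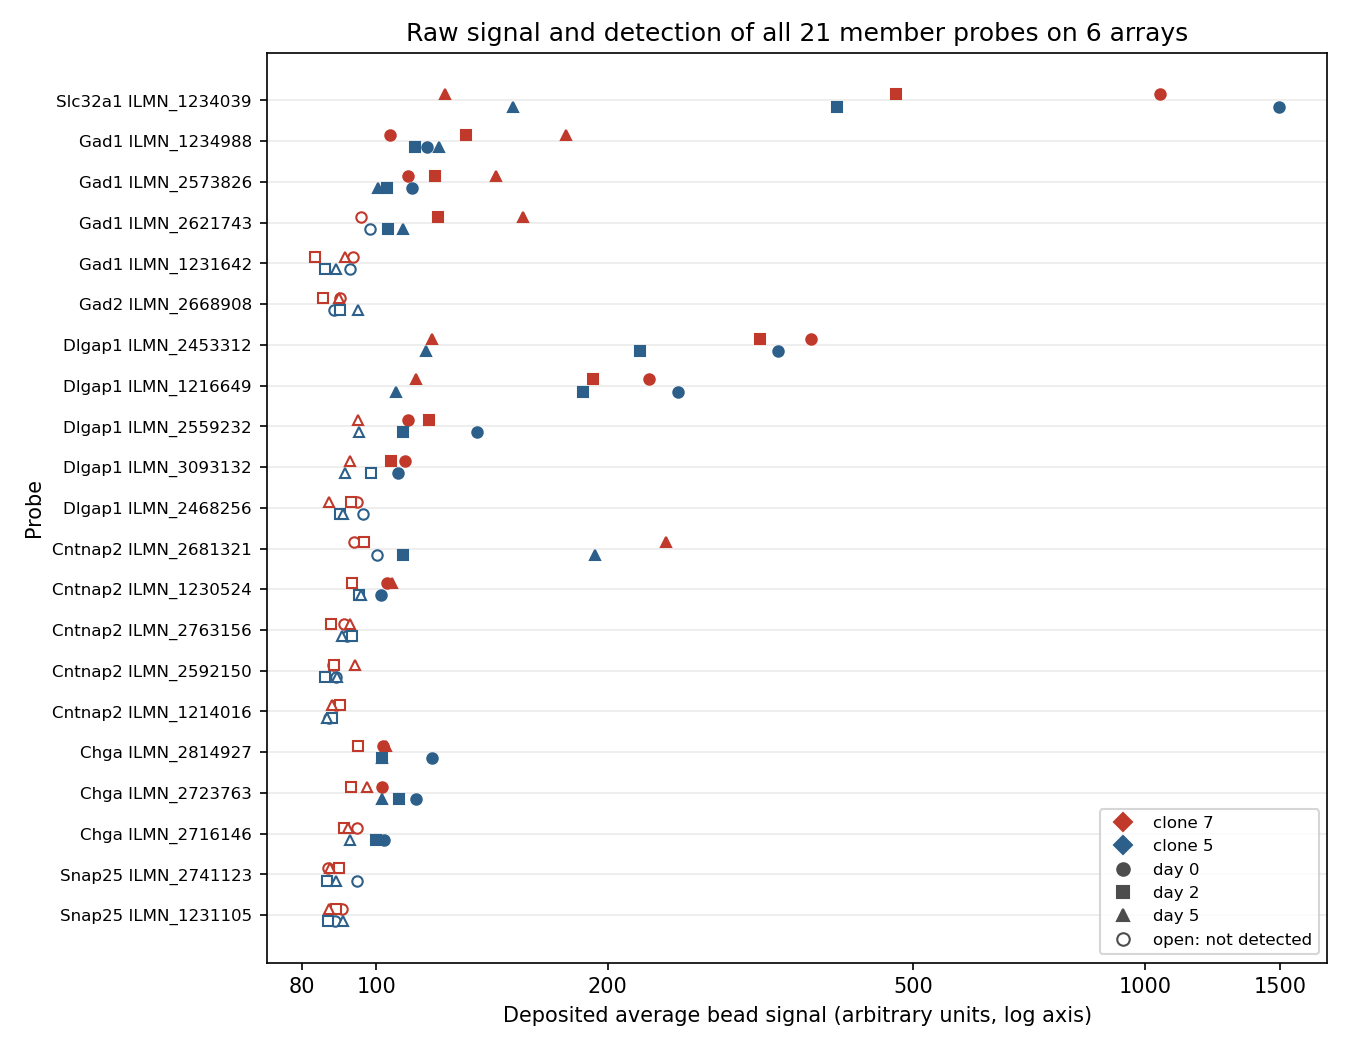
Deposited average bead signal (arbitrary units, log axis) of all 21 probes on the 6 arrays, with clone 7 in red and clone 5 in blue, and days 0, 2 and 5 as circles, squares and triangles. Open symbols were not detected. Slc32a1 spans 123 to 1496, the Cntnap2 probe ILMN_2681321 lies above its other arrays on day 5 in both clones, and the Gad2 and Snap25 probes stay at undetected signals of 85.2 to 94.6.

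Slc32a1 was read by 1 probe, ILMN_1234039, which was detected on every array. Its deposited signal in clone 7 was 1046 on day 0, 475 on day 2 and 123 on day 5. In clone 5 it was 1496 on day 0, 398 on day 2 and 151 on day 5. Both clones were highest on day 0 and lowest on day 5, and the arrays of the 3 days did not overlap. After background correction and normalization the log2 values in clone 7 were 9.93, 8.59 and 5.61 on days 0, 2 and 5, and in clone 5 they were 10.46, 8.28 and 6.09. On day 5 Slc32a1 was lower than on day 0 by 4.35 ± 0.24 (SE of the fit, 2 arrays per day) on the log2 scale, or 20.4-fold, with changes of -4.33 in clone 7 and -4.37 in clone 5.

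The decline was spread over both intervals. Day 2 was 3.39-fold lower than day 0 (log2 change -1.76 ± 0.24 SE), with -1.35 in clone 7 and -2.18 in clone 5. Day 5 was 6.01-fold lower than day 2 (-2.59 ± 0.24 SE), with -2.98 in clone 7 and -2.19 in clone 5. The share of the whole decline that fell before day 2 thus differed between the clones, while the change over the whole course differed by 0.04. Among the 17471 probes in the fit, Slc32a1 had the lowest change for day 5 against day 0 and for day 5 against day 2, and the 7th lowest for day 2 against day 0. In a bulk array, fewer cells that express a gene and less RNA per cell cannot be told apart.

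The authors' deposited table gives Slc32a1 a log2 change of -4.79 with an unadjusted p-value of 0.008 for day 5 against day 0, the 4th lowest of 698 rows. For day 2 against day 0 the authors' deposited table gives -1.83 with a p-value of 0.027. The log2 values of Slc32a1 on day 5 in the authors' deposited table are 5.04 in clone 7 and 5.71 in clone 5, below those of the normalization used here. Of the vesicular transporters of glutamate, Slc17a6 and Slc17a8 were detected on 0 arrays, and Slc17a7 (VGLUT1) was detected on 0 arrays of day 0 and on 2 of day 5.

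Of the GABA synthesis genes, Gad1 did not fall in both clones as Slc32a1 did, and Gad2 was undetected. The brightest Gad1 probe, ILMN_1234988, had log2 values in clone 7 of 4.83, 5.82 and 6.73 on days 0, 2 and 5, against 5.42, 5.22 and 5.35 in clone 5. Gad1 was thus higher on each later day in clone 7 and close to level in clone 5, with changes from day 0 to day 5 of 1.90 in clone 7 and -0.06 in clone 5. The mean change was 0.92 ± 0.40 (SE), and the arrays of day 5 and day 0 overlapped.

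The second Gad1 probe, ILMN_2573826, read 5.11, 5.50 and 6.13 in clone 7 and 5.22, 4.85 and 4.59 in clone 5 on days 0, 2 and 5. It moved in opposite directions, by 1.03 in clone 7 and by -0.64 in clone 5, and its day 5 value in clone 5 had a detection p-value of 0.0481, just inside the detection threshold. The third, ILMN_2621743, was detected on both arrays of days 2 and 5 and on none of day 0, so its mean day 5 level over the clones was at least 1.93-fold that of day 0. The clones differed in this. On day 5 it read 6.38 in clone 7 and 4.91 in clone 5, against lowest detected values on day 0 of 4.68 in clone 7 and 4.70 in clone 5. A lower bound of this kind sets the mean of the detected day against the lowest value detected on each array of the other day (4.59 to 4.70 on the log2 scale), or the probe's own value where that is higher. All 3 probes thus had their highest value on day 5 of clone 7. The 4th Gad1 probe was detected on 0 arrays, and Gad2, read by 1 probe with signals of 85.2 to 94.6, on 0 arrays. The related gene Gadl1 was also detected on 0 arrays.

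Dlgap1 resembled Slc32a1, with the larger part of its decline after day 2. Its brightest probe, ILMN_2453312, had log2 values in clone 7 of 8.24, 7.88 and 5.43 on days 0, 2 and 5, and in clone 5 of 8.06, 7.15 and 5.19. Every day 5 array was below every day 2 array, and every day 2 array below every day 0 array. The day 5 level was 7.14-fold lower than on day 0 (log2 change -2.84 ± 0.20 SE, -2.80 in clone 7 and -2.87 in clone 5). Of this, -0.63 ± 0.20 lay between days 0 and 2 and -2.20 ± 0.20 between days 2 and 5.

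Of the other Dlgap1 probes, ILMN_1216649 read 7.28, 6.83 and 5.24 in clone 7 and 7.47, 6.75 and 4.82 in clone 5, and its day 5 level was 5.09-fold lower than on day 0 (-2.35 ± 0.20 SE). ILMN_2559232 and ILMN_3093132 were detected on both day 0 arrays and on neither day 5 array. Their day 5 levels were lower by at least 1.87-fold and at least 1.32-fold. On day 2 the probe ILMN_3093132 had a detection p-value of 0.0502 in clone 5, just outside the threshold, and was detected in clone 7. The 5th probe, ILMN_2468256, was detected on 0 arrays. The 2 Dlgap1 probes detected on all 6 arrays were thus both lower on day 5. ILMN_2559232 and ILMN_3093132 entered the fit only through earlier days, so their lower day 5 level is not independent of that filter. The authors' deposited table lists 3 of these probes, at -3.48 (p = 0.004), -3.41 (p = 0.035) and -3.19 (p = 0.018) for ILMN_2453312, ILMN_2559232 and ILMN_1216649.

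Of the other genes of the family, Dlgap3, Dlgap4 and Dlgap5 were tested and none passed, which with 2 arrays per day does not show that they were unchanged. Dlgap3 was lower on day 5 in both clones, by -0.49 in clone 7 and -0.52 in clone 5. Dlgap3 had a change of -0.51 ± 0.20 (SE) for day 5 against day 0 (limma, adjusted p = 0.205), Dlgap4 of 0.11 ± 0.20 (adjusted p = 0.799) and Dlgap5, which encodes a protein of the mitotic spindle, of 0.24 ± 0.19 (adjusted p = 0.528). Dlgap2 was detected on 0 arrays. The difference between these paralogues and Dlgap1 was not tested.

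Cntnap2 was higher on day 5. Its brightest probe, ILMN_2681321, had log2 values in clone 7 of 4.35, 4.52 and 7.42 on days 0, 2 and 5, and in clone 5 of 4.67, 5.07 and 6.76. The corresponding deposited signals were 93.6, 96.3 and 238.0 in clone 7 and 100.2, 108.2 and 192.7 in clone 5. The day 0 arrays were undetected, clone 5 narrowly so (detection p-value 0.0534), and on day 2 clone 5 alone was detected. The day 5 level was at least 5.27-fold that of day 0. In clone 5, where day 2 was detected, it was higher on day 5 than on day 2 by 1.69 on the log2 scale.

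The other Cntnap2 probe in the fit did not share this. ILMN_1230524 stayed between 4.39 and 4.88 on all arrays, near the limit of detection, and was detected on 3 of them. The 3 remaining probes were detected on 0 arrays. The Cntnap2 gene record spans 2241333 bases (chromosome 6, 45060061 to 47301393, GRCm38.p6), and RefSeq lists a further start site near its far end. Which transcripts each probe reads is not given in the files, so whether the probes disagree over transcripts was not tested. Its paralogues Cntnap1, Cntnap4, Cntnap5a, Cntnap5b and Cntnap5c were detected on 0 arrays.

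Chga lay near the limit of detection on most arrays. Its 2 probes in the fit were lower on each later day in clone 5, but lowest on day 2 in clone 7. The probe ILMN_2814927 read 4.71, 4.46 and 4.79 in clone 7 on days 0, 2 and 5 and 5.48, 4.78 and 4.64 in clone 5, with a change for day 5 against day 0 of -0.38 ± 0.24 (SE). ILMN_2723763 read 4.70, 4.39 and 4.49 in clone 7 and 5.28, 5.03 and 4.63 in clone 5, with a change of -0.43 ± 0.19, though clone 7 was undetected on day 5. The highest value of each was day 0 of clone 5, and the other arrays lay between 4.39 and 5.03.

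The 3rd Chga probe, ILMN_2716146, has the lowest change of all 698 rows in the authors' deposited table, -5.24 for day 5 against day 0, with an unadjusted p-value of 0.05. The log2 values behind it in the authors' deposited table are 1.31, -0.36 and -3.32 in clone 7 and 3.53, 3.28 and -2.32 in clone 5 on days 0, 2 and 5. This probe was detected on 2 of 6 arrays, days 0 and 2 of clone 5, with signals of 102 and 99.98. The signals on the 4 undetected arrays were 90.7 to 94.5. It did not pass the filter on dim probes here, and its normalized log2 values spanned 4.30 to 4.79. The large change in the table thus belongs to a probe whose deposited signals lay between 90.7 and 102.

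Snap25, the plasma membrane SNARE of neurons, had 2 probes, both detected on 0 arrays with signals of 86.3 to 94.3. The paralogues that serve membrane fusion in most cells were detected on all 6 arrays. Snap23 had a change for day 5 against day 0 of -0.11 ± 0.17 (SE, adjusted p = 0.765 by limma), Snap29 of -0.22 ± 0.19 (adjusted p = 0.567) and Snap47 of -0.31 ± 0.18 (adjusted p = 0.386), and none passed. Chgb, Scg2 and Scg3, other granin genes, were detected on 0 arrays, Scg5 on 3 and Vgf on at most 1 by either probe.

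**Figure D2:**
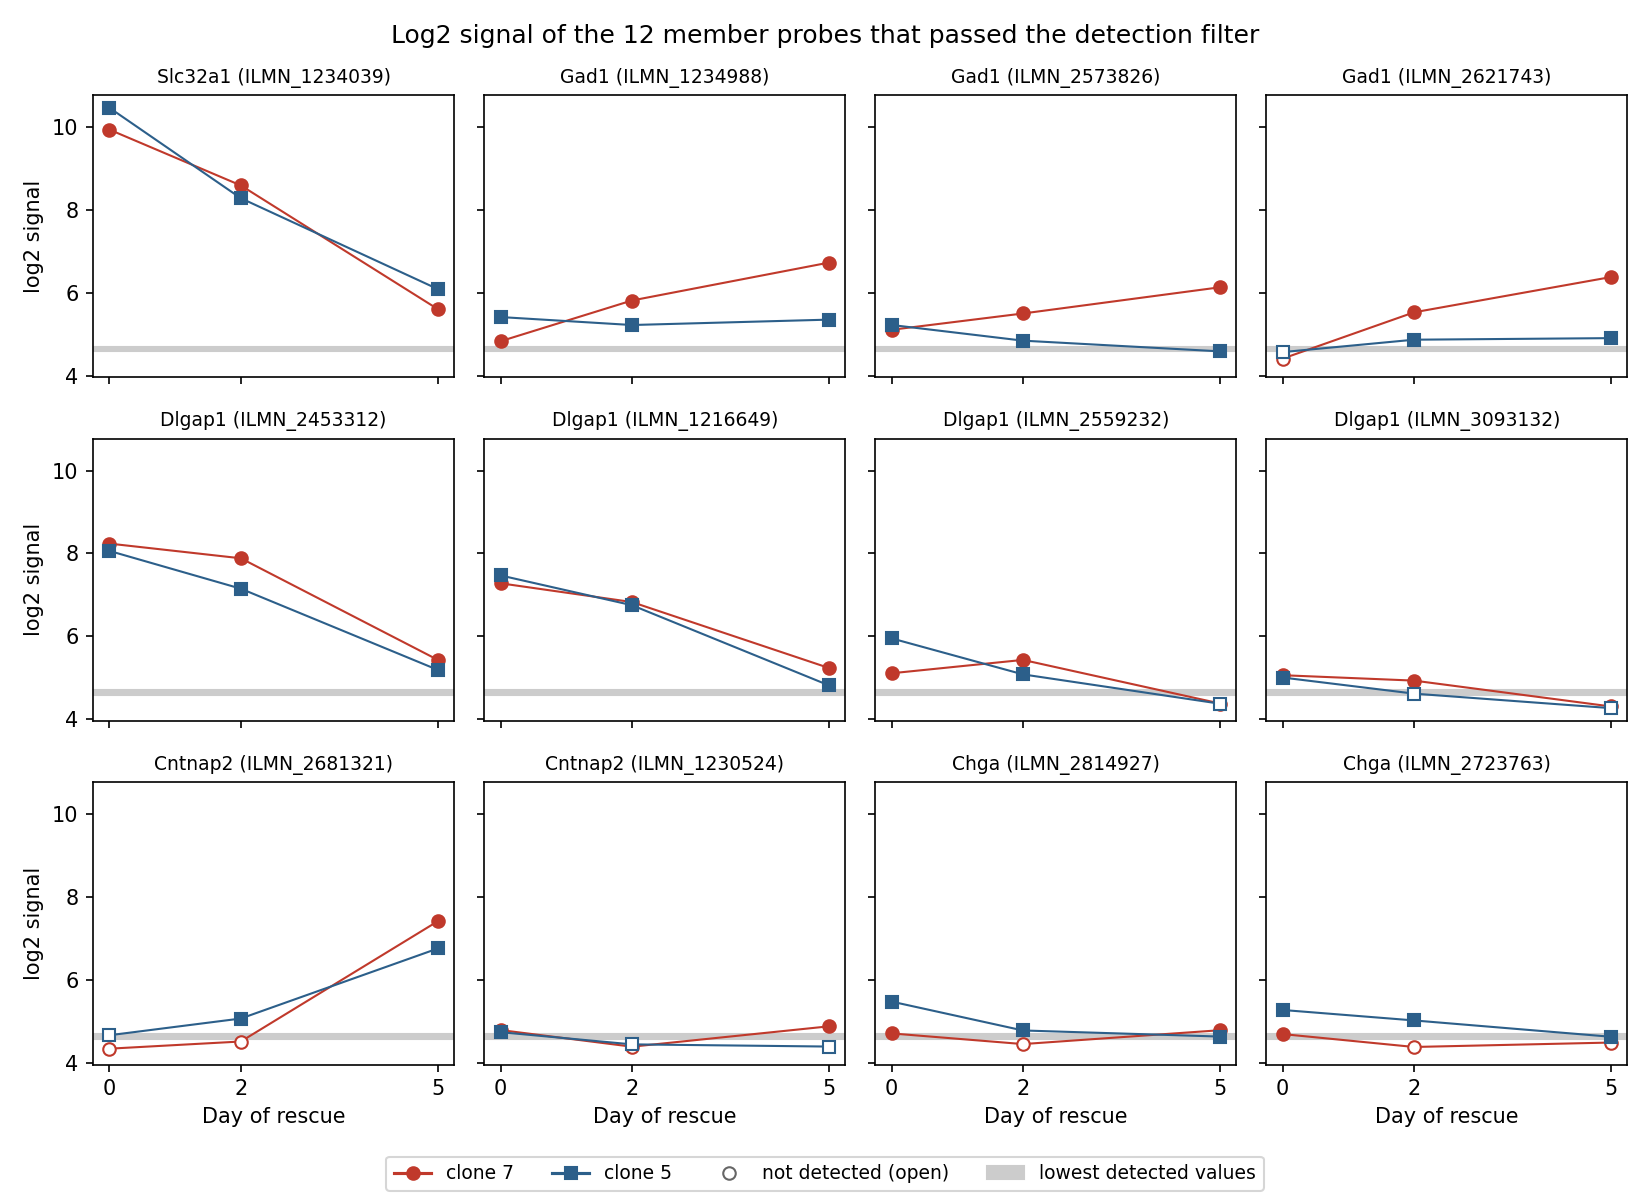
Normalized log2 signal of the 12 probes that passed the detection filter against the day of rescue (0, 2 and 5), with clone 7 in red and clone 5 in blue, 1 array per point and open symbols where a probe was not detected. The grey band spans the lowest detected values of the arrays (4.59 to 4.70). Slc32a1 and the 4 Dlgap1 probes lie lower on day 5 than on day 0 in both clones, Cntnap2 ILMN_2681321 lies higher, and the 3 Gad1 probes are highest on day 5 of clone 7.

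By the fit over all probes, 4 of the 12 kept probes passed an adjusted p of 0.05 for day 5 against day 0, 1 higher (Cntnap2 ILMN_2681321) and 3 lower (Slc32a1 and Dlgap1 ILMN_2453312 and ILMN_1216649), where 3.66% of all probes passed, 2.05% higher and 1.6% lower. The same 4 passed for day 5 against day 2, where 0.693% of all probes passed, 0.515% higher and 0.177% lower. For day 2 against day 0, 0 of the 12 passed, as 0.0% of all probes did by limma (2339 of 17471 at an unadjusted p under 0.05). These contrasts chose the genes, so the counts carry no evidence about them.

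The contrast of the clones was not used to choose the genes and was tested. Over the 3 days, 0 of the 12 probes passed for clone 7 against clone 5 by limma, where 0.0% of all probes passed (1898 of 17471 at an unadjusted p under 0.05). The 3 arrays of a clone are the 3 days of a single line and not replicates of it. Slc32a1 averaged 8.04 in clone 7 and 8.28 in clone 5, a difference of -0.23 ± 0.19 (SE, 3 arrays per clone, adjusted p = 0.733 by limma). Chga ILMN_2723763 had its lower value in clone 7 on each of the 3 days, with means of 4.53 in clone 7 and 4.98 in clone 5 (-0.45 ± 0.16 SE), with the lowest adjusted p of the 12 probes, 0.355. Dlgap1 ILMN_2453312 was higher in clone 7 on all 3 days, by a mean of 0.38 ± 0.16 (adjusted p = 0.455). Gad1 ILMN_2573826 was higher there on 2 of 3 days, by a mean over the 3 days of 0.69 ± 0.28 (adjusted p = 0.435). That mean joins unlike days, with 5.11 in clone 7 and 5.22 in clone 5 on day 0 against 6.13 and 4.59 on day 5. With Gad1 ILMN_2621743, these were the 4 probes with an unadjusted p under 0.05.

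Genes of the same pathways were described through 6 lists that hold none of the 7 genes: the GABA and glycine pathway, the glutamate pathway, the vesicle release machinery, the postsynaptic scaffold, the neurexin and contactin family, and granins and dense core granule genes. Of 168 genes, 164 were on the array, 60 were measured (a probe in the fit, the brightest used), and 83 were detected on 0 arrays. For day 5 against day 0, 10 of the 60 passed (16.7%), 9 higher and 1 lower, where 4.17% of all 12030 genes passed, 2.42% higher and 1.75% lower. The lists were chosen with earlier results of these data known, so the shares in this paragraph are a description and no evidence of an excess. The median log2 change of the 60 genes was 0.18, with 8 genes set at their bounds or not, against 0.00 over all genes. Of the 9 higher genes 5 were undetected on day 0 and entered the fit only through a later day, on which they are high. Their passing is not independent of that filter, so they are given below as bounds without a p-value. Among the 40 genes detected on all 6 arrays, 5 passed (12.5%), 4 of them higher, where 3.72% of 10026 such genes passed and 193 of the 10026 passed as higher. The count fell to 5 without the clone block, to 3 without background correction, and to 0 by limma with the authors' series values (of 17471 probes, 2976 had an unadjusted p under 0.05).

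The glutamate pathway had 8 measured genes of 31, of which 2 passed as higher, both undetected on day 0, and 1 fell. Slc1a1, which encodes the glutamate and cysteine transporter EAAC1, read 4.49, 4.47 and 6.39 in clone 7 on days 0, 2 and 5 and 4.37, 4.56 and 6.23 in clone 5 by the probe used for it. This probe was detected on day 5 alone, at a level at least 3.07-fold that of day 0, and of the other Slc1a1 probes 1 was detected on 3 arrays and 1 on 1. Slc17a7, the vesicular glutamate transporter gene named above, was at least 1.69-fold higher on day 5, with 5.73 in clone 7 and 5.17 in clone 5. Slc1a3, which encodes the glial glutamate transporter GLAST, fell by 0.87 ± 0.18 (SE, limma, adjusted p = 0.0452), and its log2 values were 8.01 in clone 7 and 8.43 in clone 5 on day 5, against 8.92 in clone 7 and 9.25 in clone 5 on day 0.

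In the vesicle release machinery 24 of 43 genes were measured, 3 passed as higher, 1 of them undetected on day 0, and 0 fell, with a median of 0.14. Cplx1, which encodes complexin 1, a clamp and helper of SNARE fusion, rose by 1.61 ± 0.20 (SE, adjusted p = 0.0119 by limma). It read 5.20, 4.75 and 6.91 in clone 7 and 5.81, 5.79 and 7.33 in clone 5 on days 0, 2 and 5, so neither clone was higher on day 2 than on day 0. Unc13b, which encodes the vesicle priming protein Munc13-2, rose by 1.39 ± 0.18 (adjusted p = 0.0121), with 5.90, 6.55 and 7.38 in clone 7 and 6.34, 7.15 and 7.65 in clone 5. Syt1, the calcium sensor of fast release, was at least 1.39-fold higher on day 5 by the single detected probe of 3, at 5.00 in clone 7 and 5.34 in clone 5.

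In the GABA and glycine pathway 11 of 37 genes were measured, 2 passed as higher, 1 of them undetected on day 0, and 0 fell, with a median of 0.36. Slc6a12, which encodes the betaine and GABA transporter BGT1, was at least 1.37-fold higher on day 5, at 5.08 in clone 7 and 5.21 in clone 5. Gphn, the gene of the scaffold gephyrin, was at 0.75 ± 0.22 (SE, limma, adjusted p = 0.115) and did not pass. Most receptor genes were below detection: 20 genes of the list were detected on 0 arrays, among them Gabbr1 and Glra1, named after their values were seen.

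The other lists held fewer calls. Of 12 measured genes of the postsynaptic scaffold (median 0.17), Homer2, which encodes an adaptor of glutamate receptors, rose by 1.20 ± 0.20 (SE, adjusted p = 0.0237 by limma), and Homer1 at 0.87 ± 0.21 (adjusted p = 0.0668) did not pass. Of 3 measured granule genes, Cpe, which encodes the prohormone-processing enzyme carboxypeptidase E, was at least 2.43-fold higher on day 5, with 5.77 in clone 7 and 6.18 in clone 5, and was undetected on day 0. The list of 18 genes named for the neurexin and contactin family, to which Cntnap2 belongs, also holds genes outside it, such as Epb41l3 and Kcna1. Of the 18, 2 were measured, Nrxn2 at 0.17 ± 0.24 (limma, adjusted p = 0.736) and Epb41l3 at 0.81 ± 0.25 (adjusted p = 0.126). For day 2 against day 0, 0 of the 60 list genes passed by limma (median -0.01, against 0.02 over all genes). For day 5 against day 2, 2 of the 60 passed. Cplx1 rose by 1.85 ± 0.20 (SE, limma, adjusted p = 0.0239), and Slc1a1, undetected on day 2, was at least 3.18-fold higher, where 0.798% of all genes passed and 0.599% passed as higher, and the median was 0.20, against -0.02 over all genes. The day 5 arrays enter both contrasts.

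**Figure D3:**
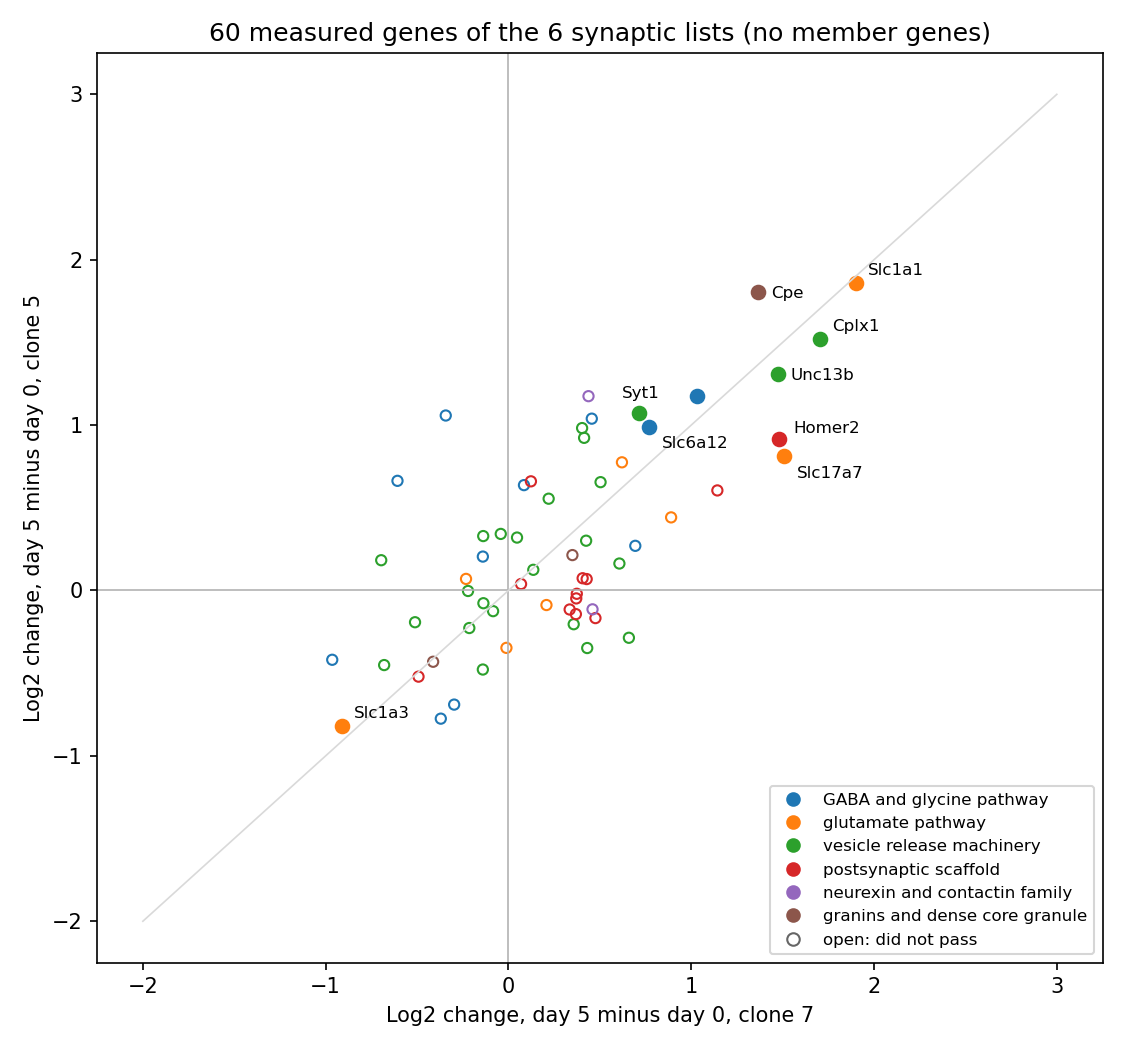
Log2 change for day 5 minus day 0 in clone 7 (horizontal axis) and clone 5 (vertical axis) of the 60 measured genes of the 6 synaptic lists, with 1 colour per list. Filled points passed an adjusted p of 0.05 (limma) and open points did not; the diagonal marks equal change. The 9 higher genes lie at the upper right, such as Cplx1 (1.70 in clone 7 and 1.52 in clone 5), and Slc1a3 lies at the lower left. For 5 of the 9, the position rests on day 0 values below detection. Of the 10 passing genes 9 carry a name.

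Marker genes were read beside these lists. For day 5 against day 0, 4.17% of all 12030 genes passed, 2.42% higher and 1.75% lower. All 11 pluripotent cell markers were detected on all 6 arrays and 0 passed between day 5 and day 0 (median -0.05), with Fbxo15 at 1.24 ± 0.47 (SE; 0.04 in clone 7 and 2.44 in clone 5), Pou5f1 at -0.66 ± 0.20 (-0.56 in clone 7 and -0.75 in clone 5) and Nanog at 0.52 ± 0.20 (0.24 in clone 7 and 0.80 in clone 5). Of 17 neuron markers, 9 were measured, and 5 of the 9 had a change above 0 (median 0.19). The 1 that passed was Elavl3, an RNA-binding protein gene of neurons, higher by 1.30 ± 0.18 (SE, adjusted p = 0.0146 by limma). Map2, at 1.07 ± 0.33 (1.86 in clone 7 and 0.28 in clone 5, adjusted p = 0.130), and Ncam1, at -1.19 ± 0.39 (-2.15 in clone 7 and -0.22 in clone 5, adjusted p = 0.146), did not pass. The summed corrected signal of the measured neuron markers was 1753 in clone 7 and 1630 in clone 5 on day 0, 1255 in clone 7 and 1684 in clone 5 on day 2, and 1690 in clone 7 and 1849 in clone 5 on day 5, so the arrays of days 5 and 0 overlapped. Stmn2 and Mapt were the brightest of these markers on every array and weigh most in this sum. Stmn2 read 9.81, 8.53 and 9.23 in clone 7 and 9.67, 9.59 and 9.77 in clone 5 on days 0, 2 and 5. Mapt read 8.67, 8.94 and 8.99 in clone 7 and 8.49, 9.02 and 8.89 in clone 5. Of the 9 measured markers, 7 were detected on all 6 arrays, while Dcx, Nefl, Elavl4, L1cam and Myt1l were detected on 0 arrays.

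Regulators of GABA neurons and endocrine cells were nearly all below detection. Of 19 genes, 15 were detected on 0 arrays, among them Dlx1, Dlx2, Dlx5, Lhx6, Ptf1a and Insm1. Isl1, a homeobox gene of motor neurons and endocrine cells, reached a day 5 level at least 1.65-fold that of day 0, on which no array detected it, and Gata2 was at 0.58 ± 0.30 (SE, limma, adjusted p = 0.329). Of 12 neural progenitor markers 8 were detected on 0 arrays, Sox1 and Pax6 among them, and Nes (0.72 ± 0.19, adjusted p = 0.0925) and Otx2 (0.27 ± 0.27, adjusted p = 0.617) did not pass. Of the repressor REST and its partners, 10 of 13 genes were measured and 0 passed (median -0.06), the largest change being that of Ctdsp2 at -0.56 ± 0.18 (adjusted p = 0.146). The single Rest probe was detected on 0 arrays.

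Of 12 fibroblast markers, 1 was measured. Thy1, also expressed by other cells, had a corrected signal in clone 7 of 56.9, 34.0 and 195 on days 0, 2 and 5, and in clone 5 of 436, 117 and 167, while Col1a1, Col1a2 and Col3a1 were detected on 0 arrays. The part of any of these marker genes in the changes of Slc32a1, Dlgap1 and Cntnap2 was not tested.

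The genes whose 6 log2 values were most like those of Slc32a1 were found among 209 genes detected on both day 0 arrays with a range of at least 2 on the log2 scale. By Pearson r over the 6 arrays they were Cyria (0.985), which encodes a regulator of actin, Sptbn4 (0.984), a beta spectrin gene, Krt42 (0.983), a keratin gene, Gcnt3 (0.981), a glycosyltransferase gene, Dpysl4 (0.976), Mras (0.967), a gene of a small GTPase, Fxyd6 (0.963), a regulator of the sodium pump, and Pla1a (0.961), a phospholipase gene. Dlgap1 came 10th, at 0.956. The arrays share clones and days, and every gene chosen for a large range that falls steadily gives a high r, so these values are a description. For day 5 against day 0, Pla1a had log2 changes of -3.02 in clone 7 and -3.75 in clone 5, and Gcnt3 of -3.80 in clone 5, the nearest in size to those of Slc32a1 among the 8.

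Of 241 genes detected on both day 5 arrays with such a range, those most like Cntnap2 were Cdhr1 (0.989), a cadherin-like gene of photoreceptors, Rassf4 (0.987), St3gal6 (0.986), a sialyltransferase gene, and Cd6 (0.986), a T cell surface receptor gene. On day 5, Cdhr1 read 6.36 in clone 7 and 6.06 in clone 5, and Rassf4 6.64 in clone 7 and 6.36 in clone 5. These 4 genes had log2 values on day 0 of 4.22 to 4.65, below the lowest values detected on those arrays.

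**Figure D4:**
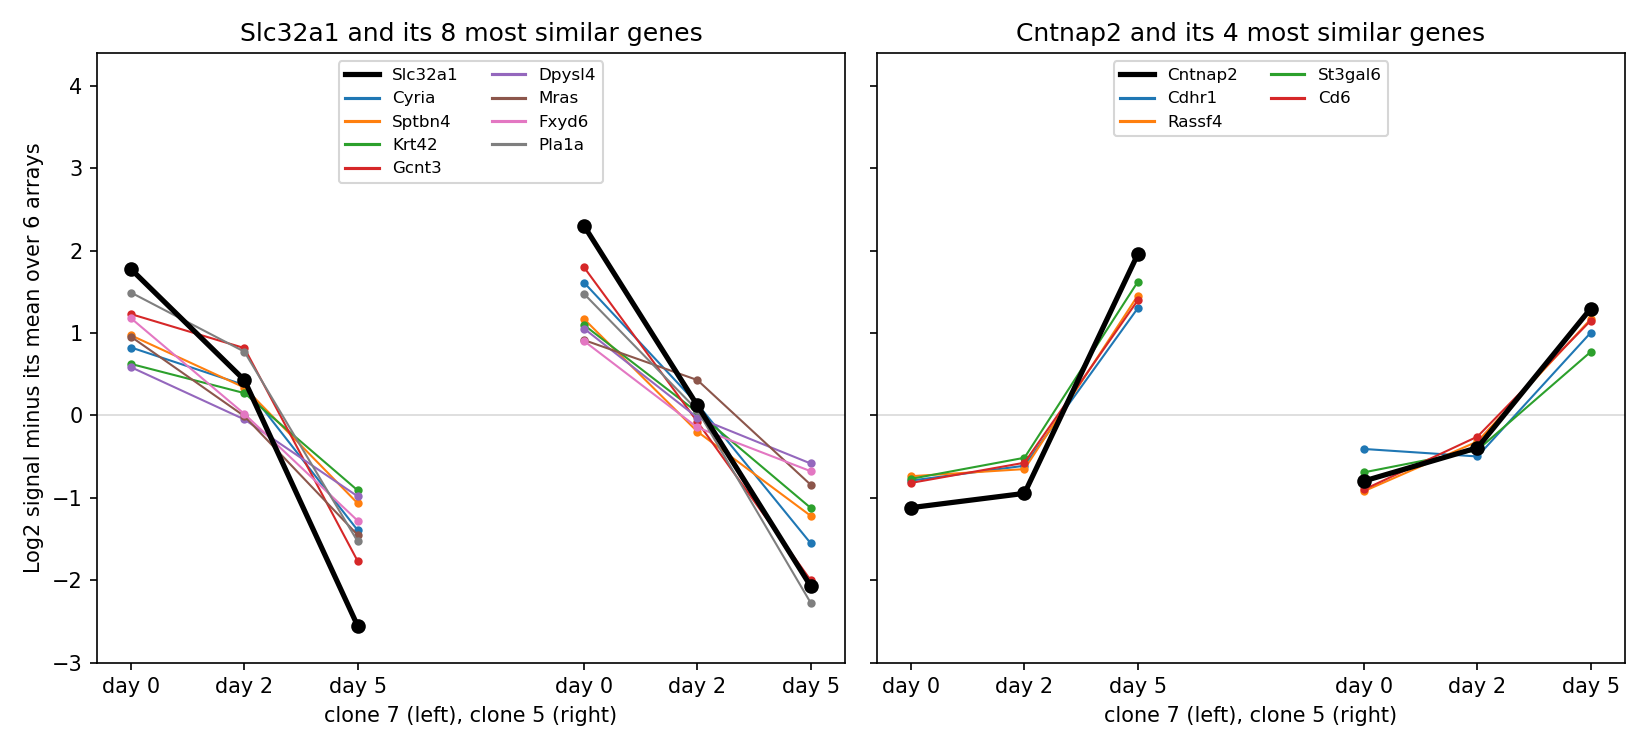
Log2 signal minus its mean over the 6 arrays for Slc32a1 and the 8 genes most like it (left panel) and for Cntnap2 and the 4 genes most like it (right panel), with days 0, 2 and 5 of clone 7 on the left and of clone 5 on the right of each panel. Slc32a1 has the widest span on the left panel in clone 7, and the genes like Cntnap2 are near level between days 0 and 2 and high on day 5.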

How the data were processed

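Expression was measured in 6 samples on Illumina mouse bead arrays of 1 chip. Per the file headers, the authors deposited an intensity for each probe (its mean over beads, without normalization), a detection p-value, and a count of arrays behind each value, which is 1 throughout. The authors also deposited series values on a log2 scale, and a table of 698 probes with log2 fold changes and unadjusted p-values. Their software is not given in the sources used.

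The normexp background correction of limma 3.58.1 (R 4.3.3) was run from detection p-values with an offset of 16, followed by quantile normalization and log2. Kept were 17471 probes of 12030 genes, those detected (p under 0.05) on both arrays of 1 or more days. A model with day and clone was fitted with lmFit and eBayes (2 residual and 5.54 prior degrees of freedom), with Benjamini-Hochberg adjustment over all kept probes and a threshold of 0.05. The SE given are those of this fit. Same-numbered samples come from the same line, so clone was a block; deviations from day means correlated at 0.35 for days 0 and 2, -0.07 for days 0 and 5 and 0.33 for days 2 and 5. Genes of lists were read by their brightest probe. The number of arrays limits the precision. The procedure was tested on simulated data.

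The 7 genes and the lists were chosen with earlier results of these data known. Named list genes are those that passed, up to 6 per list, and the 3 with the largest change. Some genes that this rule would name are not reported here. Paralogues and undetected genes were named after their values were seen. Symbols and promoters come from RefSeq (GRCm38.p6), with 35777 probes matched. Alternatives were no clone block, other background and scaling settings, series values, other detection filters, 1 probe per gene and leaving out each array.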

Additional observations from a re-analysis of the deposited data

Results flagged for a closer look

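The Gad1 probe ILMN_2573826 moved in opposite directions in the clones between day 0 and day 5. Its log2 change was 1.03 in clone 7 and -0.64 in clone 5, which differ by 1.66. With 1 array per clone and day this difference was not tested. The same probe was detected on all 6 arrays, with 6.13 in clone 7 and 4.59 in clone 5 on day 5, against 5.11 and 5.22 on day 0. For the Gad1 probe ILMN_1234988 the change was 1.90 in clone 7 and -0.06 in clone 5.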

How the results depend on the processing

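Slc32a1 kept a lower value on later days under all 14 alternatives, with log2 changes of -4.79 to -3.23 for day 5 against day 0 (-4.57 to -4.13 leaving out 1 array). Dlgap1 ILMN_2453312 ranged from -3.48 to -1.64 and Gad1 ILMN_2573826 from -0.44 to 0.83 leaving out 1 array. The probes passing between day 5 and day 0 numbered 639. They were 276 with no replicate block for clone, 129 with no background correction, 347 with an offset of 50, 358 with detection at p under 0.01 on all 6 arrays, and 0 by limma with the series values or without a detection filter (2976 and 5434 at an unadjusted p under 0.05). Median scaling gave 372 higher and 202 lower, against 359 and 280, and the strict detection filter gave 167 and 191. Leaving out 1 array gave 253 to 908, the lowest without day 5 of clone 7; 421 passed without day 0 of clone 7. For day 5 against day 2, 121 passed, and 17 with no replicate block, 2 with no background correction or an offset of 50, 43 with the strict filter and 0 by limma with the series values (2418 unadjusted) or no detection filter (4778). Leaving out 1 array gave 0 (day 2 of clone 7) to 716 (either day 0 array), with 535 without day 5 of clone 5, 55 without day 2 of clone 5 and 27 without day 5 of clone 7. For day 2 against day 0, 0 passed, 3 with the strict filter and 0 to 54 leaving out 1 array, the most without day 0 of clone 5. Between clones 0 passed, and 0 to 80 leaving out 1 array, the most without either day 5 array. Of the synaptic list genes, 10 passed for day 5 against day 0. The fit with no replicate block gave 5, no background correction 3, the strict filter 4, and series values or no detection filter 0; leaving out 1 array gave 4 (day 5 of clone 7) to 8. For day 5 against day 2, 2 passed, 1 with no replicate block and 0 with no background correction, an offset of 50, series values or either other filter. Leaving out 1 array gave 0 (day 2 of clone 7) to 8 (either day 0 array), and 0 to 1 for day 2 against day 0, where the 1 needed day 0 of clone 5 to be left out. Where an array was left out, the lone array of that day was assumed to vary like the others, and the cause of these shifts was not tested. The bead chip could not be a block, since all arrays share 1 chip. A probe undetected on a day has only a bound there, and the number of arrays limits the rest.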
